A study of Mus musculus with 6 samples.

Results

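After depletion of Brg1 in mouse embryonic stem cells, 391 promoter loops were listed in both replicate libraries and in no library of the other groups. They were chosen by listing alone. A loop here is a baited promoter fragment joined to another end on the same chromosome, and the same pair of ends had to be in both Brg1KD lists and in none of the 2 Control and 2 Ino80KD lists. The 391 loops are part of 49634 different same-chromosome loops in the 6 lists. Loops with an end on chromosome 2 at 98661117 to 98662976 were left out of the set.

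The libraries came from E14TG2a cells, an embryonic stem cell line of a male mouse, labelled wild type and grown in serum and LIF on gelatin. Every group received esiRNA, short interfering RNAs cut from long double-stranded RNA by an RNase, and was harvested after 48 h. The esiRNA of the Control group was directed against EGFP, that of Brg1KD against Smarca4, the gene of Brg1, and that of Ino80KD against Ino80. Each group had 2 libraries of promoter-capture Micro-C, a proximity ligation assay in which crosslinked, nuclease-cut chromatin is joined and promoter fragments are pulled out. Batch 1 held replicate 1 of all groups, batch 2 held Control replicate 2, and batch 3 held replicate 2 of Brg1KD and of Ino80KD. The labels do not say whether replicates came from separate cultures, so their spread may be technical. The cells were transfected as populations, so a contact made in more cells and a contact made more often per cell cannot be told apart. The files used here hold no RNA or protein level, so the extent of the depletion and the stem cell markers were not checked on expression.

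Brg1 is the ATPase of esBAF, the form of the BAF remodeller found in embryonic stem cells. It slides or evicts nucleosomes and keeps enhancers and many binding sites of pluripotency factors accessible. Ino80 is the ATPase of another remodeller, which moves nucleosomes next to promoters and also acts in replication and repair. The authors' lists give each loop a score, with 5 as the lowest. They do not tell whether a loop that is not listed scored lower or was not scored, so its contact was not shown to be missing from the cells.

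Of the 391 loops, 218 had the start of a protein-coding gene, or of an alternative transcript of one, on the bait. RefSeq promoters were found for 226 genes on these baits. The stretches printed here are the 150 bases before the start of 8 of these genes. They were picked because their loops are described further on and because they run from promoters without CG pairs to promoters rich in them. They are from RefSeq, GRCm38.p6, read 5′ to 3′ on the gene's strand, and capitals mark CG pairs, the usual sites of DNA methylation. Hand2 (chr8:57320833-57320982, plus strand), a basic helix-loop-helix factor of heart and limb, has 14 CG pairs in this stretch. Bivm (chr1:44118807-44118956, plus strand) has 8. Hoxb1 (chr11:96365608-96365757, plus strand), a homeodomain factor of the hindbrain, and Cyp2b10 (chr7:25897508-25897657, plus strand), a liver cytochrome P450 induced by foreign compounds, have 4 each. Hnf4a (chr2:163547005-163547154, plus strand), a nuclear receptor of liver and visceral endoderm, has 3. The Hnf4a start used is that of a transcript beginning inside the gene, with no outer gene end within 2 kb of the bait. Krt5 (chr15:101712906-101713055, minus strand), a keratin of basal epidermal cells, and Zfp988 (chr4:147305454-147305603, plus strand), a zinc finger protein gene, have 1 each. Olfr384 (chr11:73602432-73602581, plus strand), an odorant receptor gene, has 0, and its GC content of 23.3% is the lowest of the 8.
Hand2: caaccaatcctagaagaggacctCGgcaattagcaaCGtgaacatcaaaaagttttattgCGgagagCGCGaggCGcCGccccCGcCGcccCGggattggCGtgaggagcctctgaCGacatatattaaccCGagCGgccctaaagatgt
Bivm: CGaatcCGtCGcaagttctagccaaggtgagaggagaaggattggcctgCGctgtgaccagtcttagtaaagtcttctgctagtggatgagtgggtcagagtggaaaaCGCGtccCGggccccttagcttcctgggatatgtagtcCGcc
Hoxb1: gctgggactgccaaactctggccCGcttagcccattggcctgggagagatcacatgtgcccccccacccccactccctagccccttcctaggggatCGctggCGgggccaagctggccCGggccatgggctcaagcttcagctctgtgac
Cyp2b10: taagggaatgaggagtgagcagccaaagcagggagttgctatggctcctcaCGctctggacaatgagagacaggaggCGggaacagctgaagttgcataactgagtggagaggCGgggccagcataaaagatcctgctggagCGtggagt
Hnf4a: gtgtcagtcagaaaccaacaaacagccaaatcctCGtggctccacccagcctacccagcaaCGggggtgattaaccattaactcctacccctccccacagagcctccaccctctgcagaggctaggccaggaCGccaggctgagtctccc
Krt5: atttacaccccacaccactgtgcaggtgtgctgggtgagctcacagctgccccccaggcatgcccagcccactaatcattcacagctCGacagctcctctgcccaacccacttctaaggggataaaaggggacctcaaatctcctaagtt
Zfp988: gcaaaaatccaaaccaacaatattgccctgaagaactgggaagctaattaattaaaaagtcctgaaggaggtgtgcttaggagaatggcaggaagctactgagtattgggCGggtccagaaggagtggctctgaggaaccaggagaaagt
Olfr384: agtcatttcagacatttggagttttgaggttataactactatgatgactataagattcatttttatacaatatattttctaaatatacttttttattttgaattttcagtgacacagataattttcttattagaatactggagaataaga

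The loops listed only in Brg1KD were a small share of what both Brg1KD libraries listed. Of 3918 loops common to the Brg1KD lists, 2769 were also in at least 1 Control and at least 1 Ino80KD list. Another 416 were in Control but not Ino80KD, 342 were in Ino80KD but not Control, and 391 (9.98%) were in neither. By the same rule, 624 of the 5073 loops of both Control lists (12.3%) were in Control only, and 592 of the 4976 loops of both Ino80KD lists (11.9%) were in Ino80KD only. The Brg1KD set was the smallest of the 3 in number and in share. Brg1KD replicate 1 also stood apart by its interchromosomal loops, 5254 against 3501 to 3859 in the other libraries with the left-out bait included, and the part of this in the set was not tested. The Brg1KD lists were also the shortest, with 12254 and 12962 loops against 14113 to 15322 in the other libraries. Brg1KD and Ino80KD share their batches, 1 and 3, while Control replicate 2 stands alone in batch 2, so batch 2 and the second Control library cannot be told apart. The rule used the listings of all 6 libraries, so every count given here is a description, and no library is left to test it. The 391 loops made up 3.19% of the list of replicate 1 and 3.02% of that of replicate 2. Where a listing was asked of replicate 2 alone, 5661 loops met the rest of the rule, and of replicate 1 alone, 5242.

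The scores of the 391 loops lay close above the listing minimum in both libraries. The median was 5.78 in replicate 1 and 5.73 in replicate 2, and the highest scores were 14.72 and 18.98. By the lower of its 2 scores, the median loop stood at 5.41. The same value was 5.41 for loops in Ino80KD only, 5.45 for loops in Control only and 6.86 for the 1546 loops in all 6 libraries. Of the 391, 228 had a lower score under 5.5, 69 (17.6%, 95% Wilson interval 14.2 to 21.7) reached 6 in both libraries, and 13 reached 7. Among loops in Control only 24.8% (21.6 to 28.4) reached 6 in both libraries, and among those in Ino80KD only 20.4% (17.4 to 23.9). Replicate 1 had the higher score for 200 of the loops and replicate 2 for 188. All Wilson intervals here cover counting error only. The lists give no contact counts, so the depth behind a score is unknown.

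**Figure D1:**
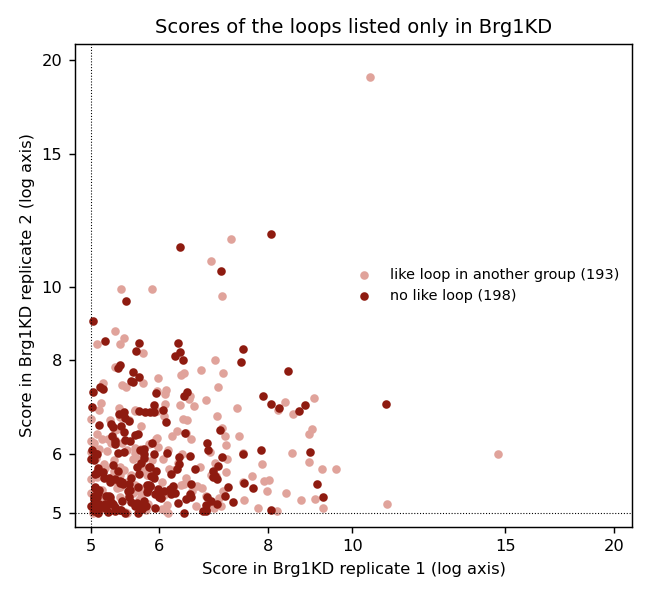
Score of each of the 391 loops in Brg1KD replicate 1 (x, log axis) and Brg1KD replicate 2 (y, log axis). Dotted lines mark the listing minimum of 5, dark points the 198 loops with no like loop within 5 kb in another group and light points the 193 with one. Most points lie near the minimum in both libraries, at medians of 5.78 and 5.73.

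Just outside the rule lay 544 loops that were in both Brg1KD lists and in exactly 1 other list. Their median score in that other library was 6.005, and 270 of them were under 6 there. The library that kept them out was Control replicate 1 for 151, Control replicate 2 for 147, Ino80KD replicate 1 for 136 and Ino80KD replicate 2 for 110. Just inside it, 4 loops with a replicate 1 score of 5.0 were nearest to the minimum. They were those of Alox8, a lipoxygenase (5.55 in replicate 2), Pnck, a kinase (6.04), Olfr996 (6.24) and an unnamed bait on chromosome 2 at 74101603 to 74103462 (5.32), whose other end covers part of the homeobox gene Evx2.

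Many of these contacts had a near neighbour in another group's list. Other ends are mostly bins of 20 kb, so a loop of the same bait to the adjoining bin counts as another loop. Of the 391 loops, 193 (49.4%, 95% Wilson interval 44.4 to 54.3) had a like loop, with both ends within 5 kb, in at least 1 Control or Ino80KD library. The share was 46.6% (42.8 to 50.6) for loops in Control only and 49.3% (45.3 to 53.3) for loops in Ino80KD only, each set against the other groups. By library, 114 of the 391 (29.2%) had a like loop in Control replicate 1, 106 (27.1%) in Control replicate 2, 102 (26.1%) in Ino80KD replicate 1 and 105 (26.9%) in Ino80KD replicate 2. The 4 libraries thus held like loops at shares whose intervals overlap. Where a like loop existed, its median score was 6.37, 6.46, 6.73 and 6.48 in the same order. A like loop was found in 1 library for 77 loops, in 2 for 43, in 3 for 28 and in all 4 for 45, and in no library for 198. The rule with a listing asked of 1 Brg1KD library gave lower shares, 27.3% without replicate 1 and 27.5% without replicate 2.

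**Figure D2:**
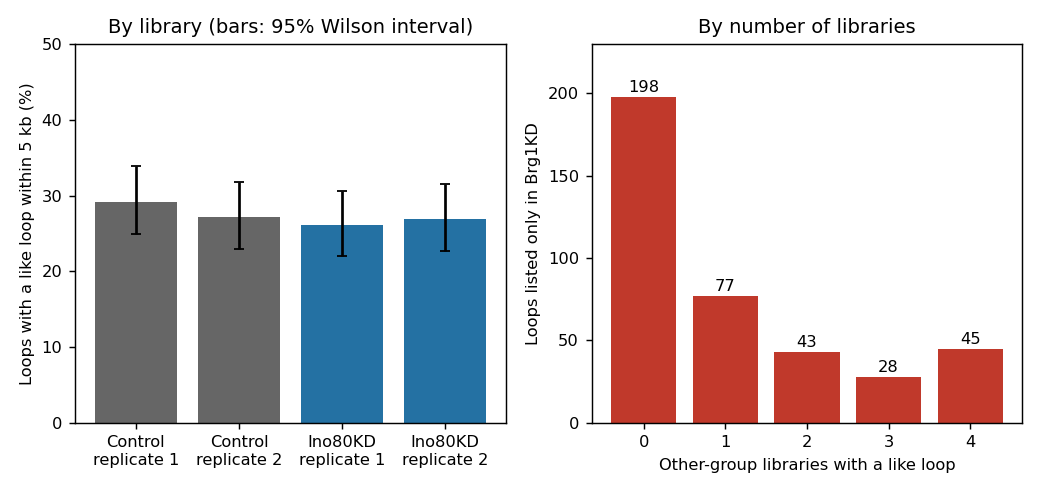
Left, share of the 391 loops with a like loop within 5 kb in each Control and Ino80KD library (y, percent; bars, share; lines, 95% Wilson interval), from 26.1% to 29.2%. Right, number of the 391 loops (y) by the number of these 4 libraries that hold a like loop (x), with 198 loops at 0 and 45 at 4.

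Some of the 391 had a strong like loop in all other libraries. The bait inside Ptprj, a receptor tyrosine phosphatase gene, met the bait at the start of Nup160, a nuclear pore gene, at scores of 5.89 and 9.93, and like loops stood at 16.3 and 18.46 in the Control lists and at 14.58 and 14.9 in the Ino80KD lists. The bait inside Ermard met the start of Dll1, a Notch ligand, at 6.36 and 5.45, with like loops at 13.88 and 9.42 in Control and 11.59 and 9.39 in Ino80KD. Elob, which encodes elongin B, met a stretch over Rasgrp3 at 6.4 and 7.67, with like loops between 9.95 and 17.4 in all 4 other libraries. In these 3 examples the named pair of fragments was listed only in Brg1KD, while contact between the same neighbourhoods was listed in every library. Each list was called on its own, so scores were not subtracted between lists.

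The baits of the 391 loops were mostly in use in the other groups. The loops started from 378 baits, 13 of which had 2 such loops and 0 had more. The baits carried 507 and 539 loops in the Control lists, 491 and 490 in the Ino80KD lists, and 841 and 931 in the Brg1KD lists. Without the 391 loops themselves the Brg1KD lists held 450 and 540 there, so replicate 1 lay below all 4 other libraries and replicate 2 lay 1 loop above the highest. For 61 of the 391 loops the bait had no loop at all in a Control or Ino80KD list. No such count is given here for loops in Control only or in Ino80KD only. Some of the 61 still had like loops from another bait within 5 kb, as Ccdc82 did in all 4 other libraries, at 6.33 to 8.84. Hand2, with no like loop, was among the 61. It had 0 loops in each Control and Ino80KD list and 1 and 3 in the Brg1KD lists, the loop of the set included. Its loop reached 431 kb to a stretch without a gene, at scores of 7.09 and 5.95. The others include Bivm and its divergent neighbour Poglut2, the growth factor gene Fgf18, Pink1, a kinase that marks damaged mitochondria, Hdac5, a histone deacetylase, and Reln, an extracellular guide of migrating neurons. Fgf18 had 1 loop in each Brg1KD list, at 5.01 and 5.91. Nrbp2, a pseudokinase gene, had 2 loops of the set and no loop elsewhere, 1 of them 59.8 kb long at 8.83 and 6.96 and the other 139 kb long to a stretch over Zfp623 at 5.28 and 6.58.

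The 391 loops were of middle length. Their median span, between the midpoints of the ends, was 242 kb (95% interval 217 to 270), with a central range by quartiles of 129 to 397 kb. Loops in Control only had a median of 293 kb, loops in Ino80KD only 238 kb, loops in all 6 libraries 130 kb and the union of the lists 299 kb. Contacts under 50 kb were 36 of the 391 (9.21%, 95% Wilson interval 6.72 to 12.5), beside 11.1% for Control only, 11.5% for Ino80KD only, 8.45% for the union, 21.8% for all loops of both Brg1KD lists and 29.4% for loops in all 6 libraries. Another 166 (42.5%) spanned 50 to 250 kb and 178 (45.5%) spanned 250 kb to 1 Mb. Another 11 (2.81%, 1.58 to 4.97) were longer than 1 Mb. That share was 3.39% (2.87 to 4.01) for all loops of both Brg1KD lists and 3.95% for loops in all 6 libraries, both within the interval of the set. It was 8.33% (6.41 to 10.8) for loops in Control only and 10.8% (8.56 to 13.6) for those in Ino80KD only. Without Brg1KD replicate 1 the median span by the rule was 343 kb, and without replicate 2 it was 285 kb.

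**Figure D3:**
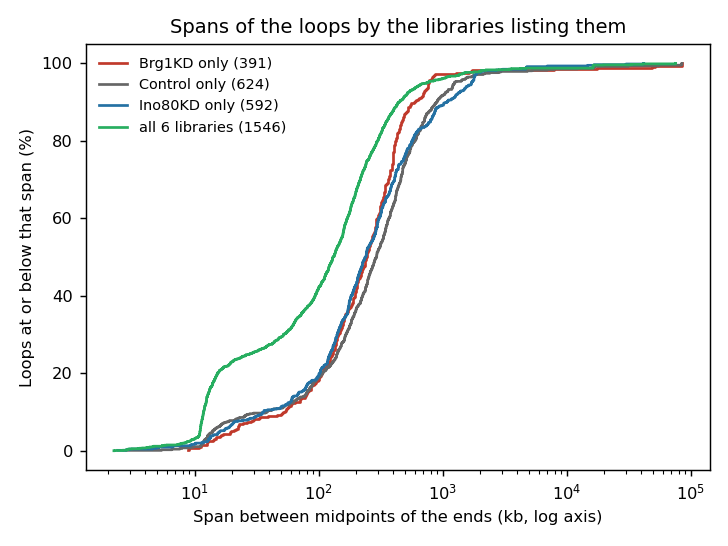
Cumulative share of loops (y, percent) up to a span in kb (x, log axis) for the 391 loops listed only in Brg1KD, the 624 in Control only, the 592 in Ino80KD only and the 1546 in all 6 libraries. The Brg1KD curve crosses the middle at 242 kb, to the right of the loops in all 6 libraries at 130 kb, and 2.81% of it lies beyond 1 Mb.

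The longest and the strongest loops were in part the same. The highest lower score belonged to Gm20946, a gene on chromosome 8 not annotated as protein-coding. Its bait at 20826895 to 20828754 met a stretch 48702 kb away over Gm7697, at scores of 10.49 and 18.98. Mroh2a (chromosome 1, bait 88225900 to 88227759) met bins near the start of the assembled chromosome at 84537 kb, with scores of 8.07 and 11.73, and at 85097 kb, with scores of 14.72 and 5.99. Hjurp, a centromere histone chaperone gene next to Mroh2a, met another bin there at 85268 kb, at 5.11 and 6.86. Gm20946 had a like loop at 5.93 in Control replicate 2, and Hjurp had one at 6.16 in Control replicate 1. The Mroh2a loop of 85097 kb had like loops at 12.88 in Control replicate 2 and at 6.1 in Ino80KD replicate 1. The Mroh2a loop of 84537 kb had none. These baits were busy in every library. Mroh2a had 8 and 19 loops in the Control lists, 6 and 14 in Brg1KD and 11 and 7 in Ino80KD, and Hjurp 9 and 18, 5 and 13, and 4 and 10. Ndufab1, the acyl carrier protein of mitochondria, met a stretch 17568 kb away over Cfap46 at 5.78 and 6.81. At the short end, S100a3 met the bait of S100a5, a member of the same calcium-binding family, 8.81 kb away at 5.44 and 6.2, and Nim1k, Spint4 and the histocompatibility gene H2-Q2 met stretches of their own genes at 8.99, 9.03 and 10.8 kb.

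Among loops under 1 Mb, the strongest in both libraries had baits at genes of many kinds. The baits of Gcc2, Eloc, Safb2 and Cux1 lay inside the gene, with no start or outer gene end on the bait. The other ends of the loops of Gcc2, Eloc, Clec2i and Cux1 covered no protein-coding gene. Gcc2, a golgin gene, held scores of 8.43 and 7.72 over 825 kb. Eloc, which encodes elongin C, held 7.49 and 8.27 over 462 kb, and its bait had 0 loops in each Control and Ino80KD list. Safb2, a nuclear scaffold attachment factor gene, met a stretch over Kdm4b, a histone demethylase, and Ptprs at 9.04 and 7.11, with a like loop at 5.01 in Ino80KD replicate 2 and in no other library. Olfr384 met a stretch over another odorant receptor gene, Olfr412, 770 kb away at 7.9 and 7.17, and had no loop in a Control or Ino80KD list. Clec2i, a C-type lectin gene of the natural killer gene complex, held 8.36 and 7.02, with a like loop at 6.24 in Control replicate 2. The homeobox gene Cux1 held 7.08 and 9.71, with like loops in all 4 other libraries at 5.22 to 9.2. Longer than 1 Mb, Bivm and Poglut2 held 7.45 and 7.95 over 1691 kb with no like loop, and Zfp988 held 7.26 and 11.57 over 1735 kb with like loops in 3 of the other libraries.

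Most baits of the set lay at genes. The start of a gene or of an alternative transcript lay on the bait of 218 loops (55.8%). An outer end of a gene, without such a start, lay on the bait of 59 (15.1%). A gene end lay within 2 kb for 19 (4.86%), and the bait lay inside a gene for 72 (18.4%). For 12 (3.07%) only a gene not annotated as protein-coding lay on the bait or within 2 kb, and for 11 (2.81%) no gene did. A start was on the bait for 55.6% of all loops of both Brg1KD lists, 59.5% of the loops in Control only, 65.0% of those in Ino80KD only and 55.0% of those in all 6 libraries. An outer end of a protein-coding gene, at either side, lay on the bait of 258 of the 391 (66.0%, 95% Wilson interval 61.2 to 70.5). These are 199 of the 218 baits with a start and all 59 of the next class, while the other 19 starts are those of transcripts that begin inside a gene's outer ends. The median number of genes within 500 kb of the bait was 29 (quartiles 13 and 39), beside 27 for all loops of both Brg1KD lists, 26 for loops in all 6 libraries, 22 for Control only, 27 for Ino80KD only and 24 (quartiles 12 and 39) for the union of the lists. The other end covered a gene in 260 (66.5%, 61.7 to 71.0), beside 65.8% for all loops of both Brg1KD lists, 60.3% (56.4 to 64.0) for loops in Control only and 73.8% (70.1 to 77.2) for those in Ino80KD only. A gene start lay in the other end of 20 (5.12%), beside 4.39% for all loops of both Brg1KD lists. Between the ends lay a median of 4 other baits, and for 56 loops (14.3%) there was none. That share was 18.1% for loops in Control only, 13.0% for Ino80KD only, 13.3% for the union, 24.4% for all loops of both Brg1KD lists and 31.8% for loops in all 6 libraries.

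Loops between baits were a small share of the set and of the other groups of loops. The other end was itself a bait in 10 of the 391 loops (2.56%, 95% Wilson interval 1.40 to 4.64), beside 2.53% of all loops of both Brg1KD lists, 2.91% of loops in all 6 libraries and 4.49% of the union. The share was 3.21% (2.08 to 4.90) for loops in Control only and 7.09% (5.29 to 9.45) for those in Ino80KD only. Beside the pairs of Ptprj and of Ermard given above, the strongest was in the Sp100 gene family region of chromosome 1. There the bait inside A530032D15Rik met the shared start of Sp110 and Sp140, nuclear body genes, 499.8 kb away at 8.54 and 6.77, with like loops in all 4 other libraries at 7.17 to 12.71. Nxnl1, a thioredoxin-like gene of photoreceptors, met a bait inside Unc13a, a gene of synaptic vesicle release, at 5.85 and 6.82. Spem2, a sperm gene, met the start of the kinase gene Tnk1 at 5.8 and 5.63. Olfr1000 met a bait over Aplnr, the apelin receptor gene, at 6.59 and 5.73. The pairs of Nxnl1 and of Olfr1000 had no like loop in another group.

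The promoters on these baits held fewer CG pairs than those on baits in general. Over the 300 bases from 250 before to 50 after the start, 256 RefSeq promoters on baits of the set had a median GC content of 56.3%, against 57.0% for the 13261 promoters on any bait of the lists. The observed over expected CpG ratio had a median of 0.518, against 0.598. It was above 0.6 in 105 promoters (41.0%, 95% Wilson interval 35.2 to 47.1), against 49.9% (49.0 to 50.7) of the promoters on any bait. The share was 47.9% (43.3 to 52.6) for promoters on baits of loops in Control only, 55.8% (51.2 to 60.4) for Ino80KD only, 45.9% (42.7 to 49.2) for all 6 libraries and 44.4% (42.2 to 46.6) for all loops of both Brg1KD lists. The interval of the set overlaps the last of these, so its difference from other Brg1KD contacts is within counting error. Promoters that share a bait or overlap are counted apart, so they are not independent. Of the stretches printed above, Hand2 and Bivm belong to promoters over that ratio, at 0.897 and 0.625, and the other 6 to promoters under it, from 0.149 for Olfr384 to 0.380 for Hoxb1.

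Short motifs were searched on both strands of these 300 bases, and no motif contains another, though matches can overlap. The GC box GGGCGGG, which Sp factors bind, was in 73 of the 256 promoters (28.5%), against 33.9% of the 21263 promoters in the RefSeq table. The letters AGGNGGC, the core of the CTCF motif, were in 79 (30.9%) against 33.6%. TATAAA, the TATA box, was in 34 (13.3%) against 12.6%, and the E-box CANNTG in 184 (71.9%) against 69.0%. The AP-1 site TGANTCA was in 14 (5.47%) against 6.99%. The octamer that Pou factors bind and the cyclic AMP response element were in 4 promoters each (1.56%), against 1.66% and 2.23%. Among promoters on any bait of the lists, 35.5% had a GC box and 33.9% the CTCF letters. On baits of loops in Control only these shares were 30.9% and 30.2%, and on those of Ino80KD only 40.8% and 36.2%. For all loops of both Brg1KD lists they were 33.0% and 35.9%. In the 150 bases printed above, Zfp988 holds a GC box, Olfr384 a TATA box and an E-box, Krt5 and Hoxb1 an E-box, and Cyp2b10 the CTCF letters and an E-box. A match is a description of the letters and not of binding, which was not measured.

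By gene family, the loops were spread over many groups, and the members of each were few. Gene lists were built from names, and a loop was counted for a list where its bait was named for a gene of the list. The other end was not used for these counts. A share is that of the loops in both lists of a group that no other group listed, beside 9.98% for all loops of Brg1KD, 12.3% for Control and 11.9% for Ino80KD. These shares are descriptions of small numbers, and no test was made on them.

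Odorant receptor genes, which encode the receptors of the sense of smell, gave the most. They held 21 of the 119 loops of both Brg1KD lists (17.6%, 95% Wilson interval 11.8 to 25.5), while 41 of 148 (27.7%) were in Control only and 26 of 110 (23.6%) in Ino80KD only. The share was thus above that of all loops in every group, not in Brg1KD alone. In total the receptor baits had 866 and 951 loops in the Control lists, 616 and 850 in Brg1KD and 789 and 693 in Ino80KD. The strongest loops were those of Olfr384, given above, Olfr424 and Olfr287. Olfr424 met a stretch over Aim2, a sensor of cytosolic DNA, at 8.68 and 6.83, and another over Mndal, of the same interferon-inducible family, at 5.2 and 8.47. Olfr287 held 6.5 and 7.16 and had like loops in all 4 other libraries. Vomeronasal receptor genes, which detect pheromones, held 3 of 16, with Vmn1r171 at 7.14 and 6.34, Vmn1r89 at 5.72 and 5.84 and Vmn1r85 at 6.0 and 5.32. The loop of Vmn1r171 had a like loop at 5.5 in Control replicate 2.

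Oxidative phosphorylation genes, which encode the respiratory chain and ATP synthase, held 7 of 29 (24.1%, 12.2 to 42.1), against 2 of 29 (6.90%) in Control only and 3 of 30 (10.0%) in Ino80KD only. The intervals of the 3 shares overlap. Their baits had 79 and 60 loops in the Brg1KD lists, 83 and 63 in Control and 66 and 73 in Ino80KD, so Brg1KD lay within the range of the other libraries in replicate 1 and below it in replicate 2. The strongest loop, at 6.39 and 8.0, was of the bait shared by Ndufb1, of complex I, and Cpsf2, an mRNA cleavage factor gene. It met a stretch over Lgmn and Rin3 414 kb away, and the bait had no loop in another group. Cox6a1, a cytochrome c oxidase subunit gene, met a stretch over Msi1, an RNA-binding protein gene, at 5.64 and 8.22, and its bait also had no loop in another group. Uqcrc1, of the cytochrome bc1 complex, held 5.63 and 6.02, with like loops in 3 other libraries at 5.6 to 6.54. Cox6a2 held 5.15 and 5.37, and Atp5g2, an ATP synthase subunit gene, 5.21 and 5.28. The loop of the bait shared by Atp5md and Pdcd11 stood at 5.28 and 5.18, and Ndufab1 was given with the longest loops.

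Keratin genes, the intermediate filament genes of epithelia, held 7 of 40 (17.5%, 8.75 to 32.0), against 9 of 51 (17.6%) in Control only and 8 of 44 (18.2%) in Ino80KD only. Of these, 4 met the same gene, Krt78, in the type II keratin cluster on chromosome 15. Krt5 met a bin from 101960001 to 101980000 over Krt78 at 7.07 and 10.5, Krt88 met it at 5.42 and 9.93, and Krt2 met it at 5.08 and 5.67. Krt84 met the bait at the start of Krt78 at 6.78 and 5.28, with like loops in all 4 other libraries at 6.43 to 10.75. Contact with Krt78 itself was listed in every library. It had 21 and 21 loops in Control, 19 and 25 in Brg1KD and 22 and 16 in Ino80KD, most of them from keratin baits (18 and 16, 16 and 23, and 21 and 13). Brg1KD replicate 1 lay within the range of the other libraries and replicate 2 above it.

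Zinc finger protein genes held 6 of 116 (5.17%, 2.39 to 10.8), against 20 of 159 (12.6%) in Control only and 16 of 137 (11.7%) in Ino80KD only. The interval for Brg1KD holds the 9.98% of all its loops. Beside Zfp988 the genes were Zfp459 at 8.21 and 6.86, Zfp160 at 5.95 and 5.69, Zfp935, Zfp426 and Zfp663. Solute carrier names, of membrane transporters and a few regulators, gave 13 of 103 (12.6%, 7.53 to 20.4), with Slc17a3, a phosphate and urate transporter, at 5.94 and 6.27, and 10 of 112 in Control only and 9 of 115 in Ino80KD only. Ion channel genes gave 5 of 44, among them Scn2a, a neuronal sodium channel, at 6.07 and 6.73. Clustered protocadherin genes, the adhesion proteins that give neurons their identity, gave 3 of 28, among them Pcdha11 at 5.82 and 5.63. Like loops in other libraries were found for Slc17a3 in all 4, for Pcdha11 and Zfp935 in 3 each and for Scn2a and Zfp459 in 1 each.

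Cytochrome P450 genes held 4 of 17 (23.5%, 9.56 to 47.3), against 5 of 20 in Control only and 0 of 15 in Ino80KD only. Cyp2b10 and Cyp2a12, both of liver metabolism, met the same bin on chromosome 7 from 26760001 to 26780000 over Cyp2b19, at 5.66 and 5.76 over 872 kb and at 7.51 and 5.49 over 259 kb. Cyp11a1, which makes pregnenolone from cholesterol, met a stretch over Cyp1a2 at 5.4 and 7.86. Cyp17a1, another enzyme of steroid synthesis, met a stretch over Nt5c2 at 5.32 and 5.09 and had like loops in all 4 other libraries. In all, 17 of the 391 loops (4.35%, 2.73 to 6.85) joined a bait to another gene of its own family, against 5.13% for Control only and 5.07% for Ino80KD only.

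**Figure D4:**
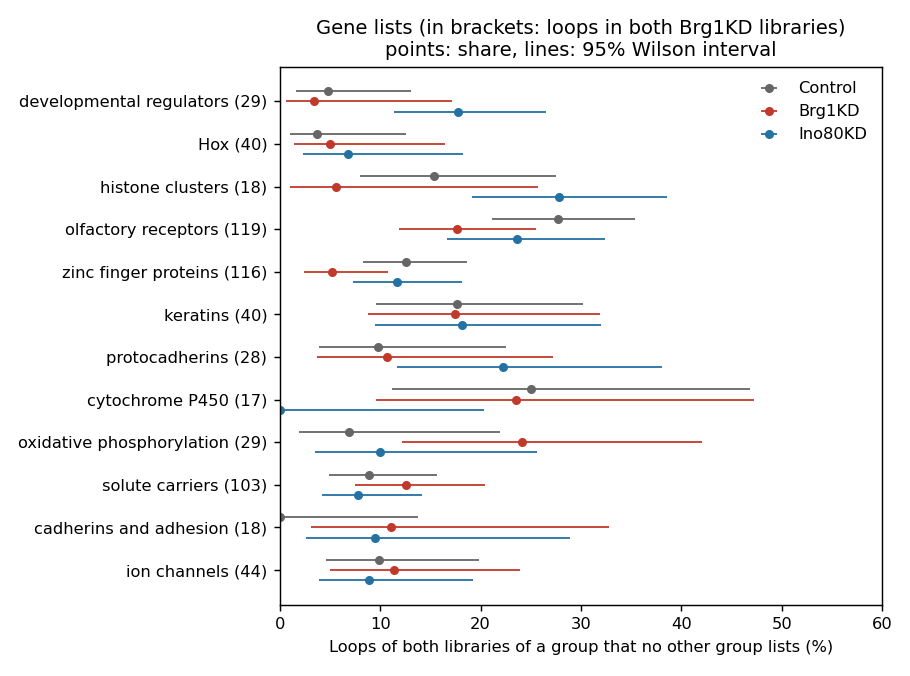
Share of the loops in both lists of a group that no other group listed (x, percent; points, share; lines, 95% Wilson interval) for the gene lists with at least 17 loops in both Brg1KD lists. Brg1KD is at 24.1% for oxidative phosphorylation against 6.90% in Control and 10.0% in Ino80KD, and at 5.17% for zinc finger proteins against 12.6% and 11.7%, with overlapping lines for both lists.

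Lists of genes of the early embryo and of chromatin gave 0 to 2 loops each. Developmental regulators gave 1 of 29, Hand2 (3.45%, 95% Wilson interval 0.611 to 17.2, which holds the 9.98% of all loops), against 3 of 63 in Control only and 17 of 96 (17.7%) in Ino80KD only. Hox genes gave 2 of 40, Hoxb1, at 5.93 and 5.3 to a stretch over Skap1, and Hoxc4, at 5.84 and 6.19 with like loops in 3 other libraries. Histone genes gave 1 of 18, H2aw at 5.03 and 7.24, against 8 of 52 in Control only and 22 of 79 (27.8%) in Ino80KD only. Pluripotency genes gave 0 of 2, polycomb genes 0 of 6, CTCF, cohesin and Mediator genes 0 of 1, ribosomal protein genes 0 of 4, trophoblast genes 0 of 4, Sox genes 0 of 4, serpins 0 of 3 and fibroblast genes 0 of 2. Primed epiblast genes had no loop in both Brg1KD lists. Of the loops of primitive endoderm markers in both Brg1KD lists, 1 of 4 was in the set, that of Hnf4a. The same counts were 0 of 5 for Control only and 1 of 5 for Ino80KD only. The Hnf4a bait met a stretch over Ada and Pkig 183 kb away at 5.91 and 6.97. It had 1 loop in each Control list, 1 in each Brg1KD list and 0 in each Ino80KD list. Of the loops of genes named for the 2-cell-like state in both Brg1KD lists, 2 of 5 were in the set. The same counts were 1 of 4 for Control only and 0 of 3 for Ino80KD only. The 2 loops were those of Prame at 5.02 and 6.93 and of Tdpoz2 at 5.33 and 5.09. The Tdpoz2 loop had a like loop at 9.67 in Ino80KD replicate 2. With so few loops in both lists, a count of 0 says little about a gene group.

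Smarca4, the gene targeted in these cells, was itself in the set. A bait inside the gene, on chromosome 9 at 21634647 to 21636506, met a stretch without a gene 234 kb away, from 21860001 to 21880000, at 6.32 and 5.94, with no like loop in another library. That bait had 1 and 1 loops in the Control lists, 6 and 3 in the Brg1KD lists and 2 and 2 in the Ino80KD lists, so both Brg1KD libraries lay above the other 4. The loop of the set is 1 of them in each Brg1KD list, and without it replicate 2 would have 2, as many as each Ino80KD list. The loop is 1 of 9 of BAF subunit genes in both Brg1KD lists. Of INO80 subunit genes, the bait shared by Ruvbl2, an AAA ATPase of that complex, and Gys1, the muscle glycogen synthase, met a stretch over the transporter gene Slc6a21 at 5.51 and 5.5. That loop had a like loop at 5.41 in Ino80KD replicate 1. The stress-response gene Fosb (5.06 and 5.42), the cell cycle kinase gene Cdk6 (6.51 and 5.31) and the adhesion genes Nrxn2 (6.34 and 8.18) and Efna2 (6.78 and 5.05) gave 1 loop each.

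Some stretches were met by several baits of the set. Where adjoining other ends were merged, 25 stretches were met by 2 or more loops of different baits, 55 loops in all, and 5 of these by 3. No such count is given here for loops in Control only or in Ino80KD only, so sharing is not read as particular to the set. The stretch over Gucy2e, a retinal guanylate cyclase gene on chromosome 11 (69220001 to 69236282), was met by Alox8 and by 2 baits of Chd3, the ATPase of the NuRD remodeller. Over all baits it had 2 and 0 loops in Control, 5 and 3 in Brg1KD and 1 and 0 in Ino80KD. The loop of Alox8 to it had like loops in all 4 other libraries, at 6.8 to 8.69, so contact close by was listed in every group. The stretch over Gpr142 and Btbd17 on the same chromosome (114800001 to 114820000) was met by Gpr142 itself and by the myeloid receptor genes Cd300a and Cd300ld3, with 1 and 1, 4 and 3, and 4 and 0 loops. The stretch over Armcx5 and Gprasp1 on chromosome X was met by Prame and by 2 baits of Nxf7, an RNA export factor gene, with 1 and 2, 4 and 4, and 3 and 1 loops. The loops that met the rule are part of these Brg1KD counts and fix their direction. At the stretch over Trpm4 and Slc6a21, met by Gys1 and Ruvbl2, Dkkl1 and Cd37, the counts were 7 and 14, 11 and 13, and 13 and 8, and the groups overlap. The stretch over Olfr91 on chromosome 17 was met by Trim26 and Trim40, of the tripartite motif family in the histocompatibility region, with 0 and 1, 5 and 4, and 2 and 1 loops. The stretch over Dnah2 on chromosome 11, met by Hes7 and Aloxe3, was full in every library, with 22 and 23, 22 and 27, and 23 and 25 loops.

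Along the genome, the set was spread over many chromosomes. Chromosome 7 held 57 of 496 loops of both Brg1KD lists (11.5%), chromosome 11 held 50 of 535 (9.35%), chromosome 2 held 36 of 286 (12.6%) and chromosome 17 held 33 of 339 (9.73%). Chromosome X had the highest share, 20 of 94 (21.3%, 95% Wilson interval 14.2 to 30.6), and it was high in the other groups too, at 22.8% in Control and 18.0% in Ino80KD. Chromosome 13 had 6 of 111 (5.41%, 2.50 to 11.3), against 23 of 192 in Control and 18.3% (13.9 to 23.6) in Ino80KD. By windows of 2 Mb, the most lay on chromosome 7 from 44000001 to 46000000, a window that holds Gm36864 (7.11 and 7.69, with like loops in Control replicate 2 and Ino80KD replicate 1) and the bait of Gys1 and Ruvbl2. It had 10 of 53 in Brg1KD, 9 of 57 in Ino80KD and 2 of 53 in Control. A window on chromosome 11, from 70000001 to 72000000, had 8 of 39 against 5 of 29 in Control and 2 of 23 in Ino80KD, and holds Vmo1, which shares its name with a protein of the egg's vitelline membrane. Vmo1 had 2 loops of the set, to stretches over the kinase gene Mink1 (7.06 and 5.11) and the kinesin gene Kif1c (7.36 and 6.9). These windows were picked for their counts.

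The authors also deposited a table of regions compared between each depletion and Control, from the same libraries as the lists. No header gives the direction. In the authors' deposited table for Brg1KD, 83.7% of the loops listed only in Brg1KD and 16.9% of those listed in Control only had a log2 fold change above 0, and a value above 0 is read here as more contact in the depleted cells. Both tables use the same Control libraries, and the one for Brg1KD uses the libraries that chose the loops, so its values support nothing about them. Its regions are wide, with a median of 115.8 kb, and 213 of the loops met several entries, which were averaged.

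In the authors' deposited table for Brg1KD, 386 of the 391 loops had an entry, and 323 of these (83.7%, 95% Wilson interval 79.7 to 87.0) were above 0, beside 48.7% of all 33243 entries. The median log2 fold change of the loops in the authors' deposited table was 0.22, with quartiles of 0.059 and 0.33 and a range from -0.37 to 1.48. Above 0, the authors' deposited table held 6 of these loops (1.55%) at an unadjusted p under 0.05, beside 0.373% of all entries, and below 0 it held 0, beside 0.827% of all entries. The smallest adjusted p in the authors' deposited table was 1.00, so 0 entries passed after adjustment, by the authors' method, which no header names. With a listing asked of 1 Brg1KD library, the authors' deposited table gave a median of 0.13 without replicate 1 and 0.14 without replicate 2. Loops in Ino80KD only, chosen by the same rule, were high in the authors' deposited table for Ino80KD too. Of the 585 with an entry there, 86.7% were above 0, at a median of 0.24, so such values are not particular to Brg1KD.

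In the authors' deposited table for Ino80KD, 216 of the 391 loops had an entry, and 94 of these (43.5%) were above 0, beside 50.4% of all 34774 entries. The authors' deposited table gave them a median log2 fold change of -0.018, and 0 had an unadjusted p under 0.05 above 0, beside 0.912% of all entries. Of the 216 loops in both of the authors' deposited tables, 86 were above 0 in both, and 178 had the higher value in the Brg1KD table. The 175 loops without an entry in the Ino80KD table were not analysed there. The tables share Control, so the counts are given side by side and not as agreement or difference between the depletions.

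**Figure D5:**
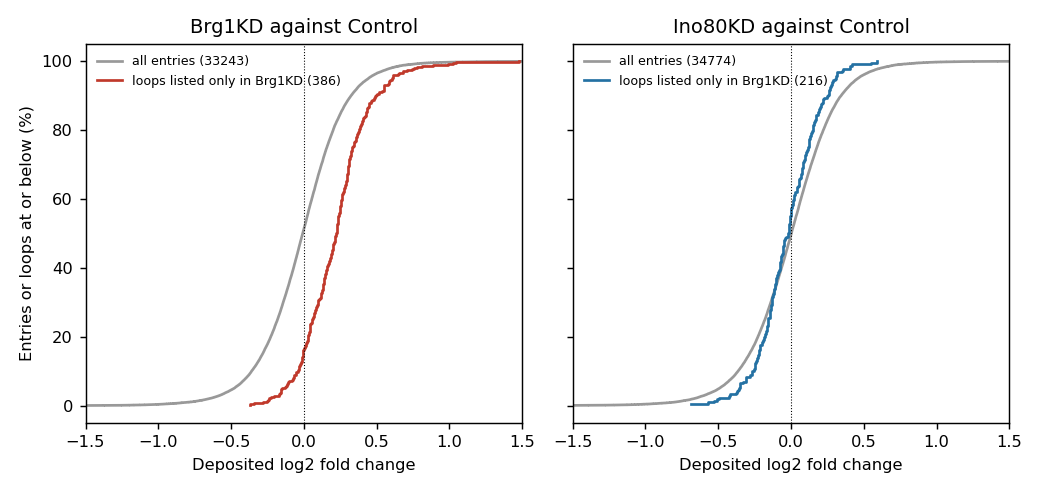
Cumulative share (y, percent) of all entries of the authors' deposited tables and of the loops listed only in Brg1KD, up to a log2 fold change (x), for Brg1KD against Control (left) and Ino80KD against Control (right). The 386 loops at left have a median of 0.22 in the table of the libraries that chose them, and the 216 at right one of -0.018.

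Single loops differed little beside their errors in these tables. The following values are of the entry with the widest overlap. Abca3, a lipid transporter gene of the lung, met a stretch over its relative Abca17 54.3 kb away at scores of 7.04 and 6.45. The authors' deposited table gave it a log2 fold change of 0.60 ± 0.25 (SE, unadjusted p = 0.0166), the lowest p above 0. Krt84 had 0.60 ± 0.27 in the authors' deposited table, and the homeobox gene Meox1 had 0.38 ± 0.17. Below 0, the lowest p in the authors' deposited table was that of Olfr768, at -0.60 ± 0.42 (unadjusted p = 0.148), followed by Stim1, a calcium sensor gene, at -0.22 ± 0.18, Pld5 at -0.25 ± 0.24 and the integrin gene Itga8 at -0.29 ± 0.29. These 4 were listed only in Brg1KD, although the wide region around them was lower there. Itga8 had like loops in all 4 other libraries, at 7.68 to 10.9. Olfr768 and Pld5 had a like loop in 1 library each, and Stim1 had none. For Smarca4 the value in the authors' deposited table was 0.23 ± 0.34, for Hand2 0.19 ± 0.25, for Krt5 0.28 ± 0.33 and for Hnf4a 0.36 ± 0.23.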

How the data were processed

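Promoter-capture Micro-C was measured in 6 libraries, 2 each of Control, Brg1KD and Ino80KD. Per the files' values, the authors deposited 1 loop list a library with an interaction score from 5 up, the authors' own and used only within a list; a loop caller is not named in those sources. Per the submitters' processing notes, the tool list names bedtools and the build is mm10. Per the file headers, the authors deposited comparison tables with a normalized mean signal, log2 fold changes and standard errors, a test score, and p-values with and without adjustment; no p-value was recomputed. The depth per library is unknown. The design was a description from the start, since the rule uses all 6 libraries, and no test was made.

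Loops were matched by identical ends. Bait names came from RefSeq, GRCm38.p6 (the same primary chromosomes as mm10). A start on the bait came first, then an outer gene end on the bait, then one within 2 kb. A gene around the bait came next. A gene not annotated as protein-coding, on the bait or within 2 kb, came last. A like loop has both ends within 5 kb. Spans run between midpoints. Shares have 95% Wilson intervals, and median spans intervals from binomial order statistics. Promoters were taken from 250 bases before to 50 after a start. Python 3.11.15, pandas 2.3.3, numpy 2.4.6, scipy 1.17.1 and matplotlib 3.10.9 were used. The selection was tested on simulated lists, in which 200 of 200 planted loops were recovered and 0 others found. Every other simulated loop was in all lists, so the set-up fixed this outcome, and it checks only the code.

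Genes named are those of the 12 loops with the highest lower score, the 6 baits with the most loops, the 4 longest and 4 shortest loops, the 4 lowest p on each side of 0 (1 of which is not reported here), up to 3 loops a gene list, the 6 strongest loops between baits and the 4 nearest to the minimum. Genes at shared stretches, further list members, and baits without a loop elsewhere were chosen after their values were seen. The members, the 29 gene lists and the motifs were chosen with earlier results of these data known. Alternatives covered the identity of a loop, the order of its ends, the score minimum, the groups that must lack it, the distances to a gene and to a like loop, the matching of the deposited regions, spans up to 5 Mb, and each library left out.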

Additional observations from a re-analysis of the deposited data

Results flagged for a closer look

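The bait left out of the set, on chromosome 2 at 98661117 to 98662976, also had loops that met the rest of the rule. Of its same-chromosome loops, 2 were listed in both Brg1KD libraries and in no other, against 1 in Control only and 1 in Ino80KD only. It is given because these loops lie outside those described above and their count was 1 higher than in Control. The bait had 3 loops in both lists of each group, and 59 and 70 loops in the Brg1KD libraries against 63 and 57 in Control, which overlap, so no difference is read from it.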

How the results depend on the processing

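No paired analysis was possible because these results come from no test, the rule having used the listings of all 6 libraries. With both Brg1KD scores at least 6, 69 loops were left, with a median span of 341 kb, 59.4% with a like loop, and, in the Brg1KD values that the authors deposited, 88.1% above 0 and a median of 0.27. With absence asked of Control only, 733 loops were found, with a median span of 213 kb, 73.0% with a like loop, and medians of 0.19 for Brg1KD and 0.064 for Ino80KD in the authors' deposited tables, the last above 0 where the reported value was -0.018. With likeness within 5 kb in place of identical ends, the median span was 284 kb, 0.904% of the loops were between baits and by construction 0 had a like loop. An outer gene end on the bait or within 2 kb, starts inside a gene not counted, was found for 72.6%, and a like loop for 38.1% within 1 kb and 73.7% within 20 kb. Without 1 library at a time, the number ran from 501 to 5661, the median span from 223 to 343 kb, the share between baits from 2.23% to 4.08%, the share with a gene end from 63.5% to 66.5%, the share with a like loop from 27.3% to 63.5%, the share above 0 from 72.0% to 84.3%, and the deposited log2 medians from 0.13 to 0.21 for Brg1KD and from -0.056 to 0.021 for Ino80KD. The cause of these moves was not tested. Matching the ends in either order and spans up to 5 Mb, the latter chosen after seeing the data, gave 388 and 384 loops and left the other 7 results within their intervals, as the widest overlapping region did for the Brg1KD median. The limits are a score minimum below which no contact is listed, lists of unequal length, 2 libraries a group, and an unknown depth.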
